A study of Homo sapiens with 6 samples.

Results

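The cytosolic ribosomal protein (RP) genes encode the proteins of the ribosome that translates nuclear mRNAs. They were chosen by symbol from the GENCODE release 44 annotation of GRCh38, taking protein-coding genes named RPL or RPS with a number and, for some, a final A or X, together with RPLP0, RPLP1, RPLP2 and RPSA. This gave 77 of the 19970 protein-coding genes on the 23 chromosomes that carried peaks, of which 46 code for proteins of the large 60S subunit and 31 for proteins of the small 40S subunit. All samples were MDA-MB-231, an established human triple-negative breast cancer cell line, and chromatin immunoprecipitation sequencing (ChIP-seq) was done once per condition, so no value has a replicate and no test between conditions was possible. E2F1, a cell cycle transcription factor, was immunoprecipitated from untreated cells, from cells given DMSO, the solvent, for 72 h, and from cells given 1 µM GSK126 for 72 h. GSK126 inhibits EZH2, the enzyme that places 3 methyl groups on lysine 27 of histone H3 (H3K27me3). H3K27me3 was immunoprecipitated after 24 h of lentivirus carrying control shRNA or shE2F1, an shRNA against E2F1, and 72 h of puromycin at 2 µg/ml, so both of those samples had been infected and selected. Neither the amount of E2F1 after knockdown nor H3K27me3 after GSK126 was measured in the files used here, and an input of untreated cells was not analysed here.

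RP genes are among the most highly transcribed genes of a growing cell. Their mRNAs begin with a C and a run of pyrimidines, the 5′ terminal oligopyrimidine (TOP) tract, through which the mTOR pathway controls their translation. E2F factors are best known for binding promoters of DNA replication genes, and H3K27me3 is known as the mark of Polycomb silencing, so neither is a textbook feature of the promoters of RP genes.

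Each RP gene was scored by peaks whose summit, or midpoint for the broad H3K27me3 peaks, lay within 1 kb of any annotated transcription start site (TSS) of the gene. The untreated E2F1 list held 1056 peaks, the DMSO list 15703 and the GSK126 list 14276. The H3K27me3 lists were far longer, at 123957 peaks over 143 Mb in control shRNA and 135683 peaks over 179 Mb in shE2F1. The lowest background of a list, in expected fragments, was taken as a guide to library depth, as read counts were not used here. It was 0.668 for untreated cells against 1.82 for DMSO and 1.70 for GSK126, so the untreated library appeared the shallowest. RRM2, a classical E2F target, had E2F1 folds of 9.03, 32.5 and 60.4 in these 3 lists. HOX genes are classical Polycomb targets, yet only 3 of 39 had an H3K27me3 midpoint within 1 kb of a TSS in control shRNA and only 3 in shE2F1. Counting any overlap with that window, which takes in wide domains, gave 10 in each list. The housekeeping genes ACTB (fold 3.59) and GAPDH (3.29) had an H3K27me3 peak in shE2F1, and ACTB also had one in control shRNA (3.36). Both had E2F1 peaks in DMSO (4.71 and 7.19) and in GSK126 (9.28 and 12.2), and neither had one in untreated cells.

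E2F1 peaks were common at RP genes in the DMSO and GSK126 libraries. In DMSO 51 of the 77 RP genes had a peak (66.2%, exact 95% interval 54.6 to 76.6), where 33.5% of all protein-coding genes did. In GSK126 69 had one (89.6%, 80.6 to 95.4), against 51.5% of all genes. In untreated cells only 7 had one (9.09%, 3.73 to 17.8), against 5.85% of all genes. The intervals treat the genes as draws and cover counting error only.

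H3K27me3 was at fewer RP genes in control cells and at most of them after knockdown of E2F1. In control shRNA 16 of the 77 had a peak (20.8%, 12.4 to 31.5), near the 23.2% of all protein-coding genes. In shE2F1 49 had one (63.6%, 51.9 to 74.3), against 46.4% of all genes. All 16 genes marked in control cells were also marked in shE2F1, which leaves 33 RP genes with a peak in shE2F1 and not in control shRNA (42.9%, against 26.8% of all genes). No RP gene had a peak in control shRNA and not in shE2F1, where 3.6% of all genes did. Neither count was particular to the cytosolic RP genes. Of 78 mitochondrial RP genes 33 had a peak in shE2F1 only and 0 in control shRNA only. Of 30 ribosome biogenesis genes it was 16 and 0.

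**Figure D1:**
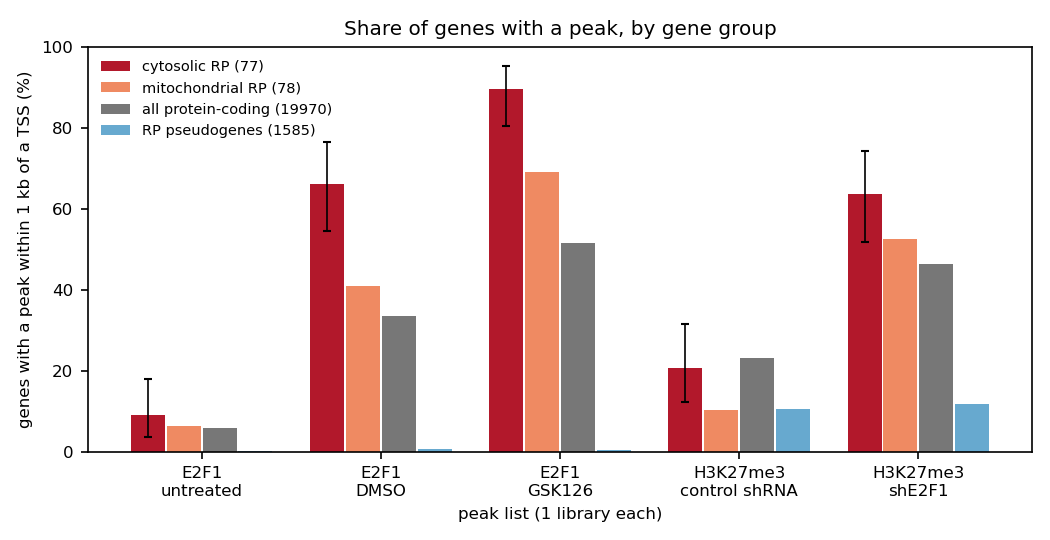
Share of genes with a peak within 1 kb of a TSS (y axis, %) in each of the 5 peak lists (x axis, 1 library each), for cytosolic RP genes, mitochondrial RP genes, all protein-coding genes and RP pseudogenes, with the number of genes in brackets. Error bars on the cytosolic RP genes are exact 95% intervals for counting error. The cytosolic RP bars stand highest in all lists but control shRNA H3K27me3, where their 20.8% lies beside 23.2% of all genes.

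The sequences under the E2F1 summits are given first. An E2F word (TTCCCGC, the variants TTCGCGC and TTGCCGC, or the further variant TTGGCGC, each on either strand) lay within 100 bp of the strongest GSK126 summit at 21 of 69 RP genes, and its centre lay within 10 bp of the summit at 12 of them. The following windows, in the direction of the gene and with 11 bases on either side, hold 10 of those words, which stand in capitals. They are shown because the centre of the word lay within 10 bp of the summit, which at some of these genes fell beside the word. How many other promoter summits had a word that close was not counted. Within 50 bp of the summit a word was at 14 of the 69 RP genes (20.3%). That compares with 24.2% of all GSK126 summits within 1 kb of a protein-coding TSS.
RPS29 (chr14:49598955-49598983, minus strand): aaacttcctccTTCCCGCcacccggcgcc
RPS13 (chr11:17077872-17077900, minus strand): tcagcctcaaaTTCCCGCtctggcaacaa
RPS16 (chr19:39436060-39436088, minus strand): gcctaagggccTTCCCGCcgctgaccaga
RPS15 (chr19:1438432-1438460, plus strand): agtgttgcgatTTGGCGCgtctctgccgg
RPS3 (chr11:75399529-75399557, plus strand): agcggagcgcgGCGGCAAgatggcagtgc
RPL10 (chrX:154398238-154398266, plus strand): cccgggcgcaaGCGCCAAgagcggctgcg
RPL19 (chr17:39199755-39199783, plus strand): actgagactagTTCCCGCcctccaagagc
RPL23A (chr17:28719946-28719974, plus strand): tttagtgctctTTGGCGCtataagcccgt
RPL36 (chr19:5690326-5690354, plus strand): aggtaagtggtTTCCCGCactgccggtat
RPL9 (chr4:39458698-39458726, minus strand): tttttggcctaTTCCCGCccctcagtctt
The word was TTCCCGC at 6 of these 10 genes, on one strand or the other, and RPS29, RPS13 and RPS16 among them had the highest E2F1 folds of the 10 in GSK126, from 22.8 to 41.1. The RPS29 summit lay 12583 bp upstream of the start of its Ensembl canonical transcript and 11 bp from a TSS of LRR1.

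Other strong summits had no E2F word within 100 bp. For contrast, 4 of them with high GSK126 folds are shown by the 29 bases centred on the summit, in lower case because no word is marked.
RPL35 (chr9:124861893-124861921, minus strand): tgtgcagcaatggtgagagctgcggaatc
RPL26 (chr17:8383125-8383153, minus strand): aggattcggcgggcaagcgggtgtaatca
RPL7A (chr9:133348225-133348253, plus strand): tctcctcccgccgcccaagatggtgagtg
RPL21 (chr13:27251508-27251536, plus strand): tgggcagcccacaggcccttgtaaggcgc
E2F1 fold at these 4 genes in GSK126 was 17.3 at RPL35, 14.5 at RPL26, 12.8 at RPL7A and 11.8 at RPL21. High fold was thus seen at RP summits with and without the word.

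Over all RP genes with a peak, the share of RP summits with an E2F word was close to that of other promoter summits. It was 57.1% (4 of 7) for untreated, 29.4% (15 of 51, 17.5 to 43.8) for DMSO and 30.4% (19.9 to 42.7) for GSK126 summits, and among all E2F1 summits within 1 kb of a protein-coding TSS it was 55.1%, 35.8% and 30.9%. The GC content of the 201 bases around the summit had a median of 62.2% at RP genes and 70.1% at all promoter summits in GSK126.

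Start sites of the RP genes carried their usual signature. A C followed by at least 4 pyrimidines began within 5 bases of the canonical TSS, the start of the Ensembl canonical transcript, at 66 of the 77 RP genes (85.7%) and at 21.8% of all protein-coding genes. The windows below run from 15 bases before to 14 bases after that TSS, with the pyrimidine tract in capitals. The first 7 are RP genes that lacked E2F1 throughout, and the last 3 are genes with a strong E2F1 or H3K27me3 peak, shown for comparison.
RPL11 (chr1:23691791-23691820, plus strand): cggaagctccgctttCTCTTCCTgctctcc
RPL13A (chr19:49487593-49487622, plus strand): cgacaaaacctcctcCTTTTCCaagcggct
RPL34 (chr4:108620561-108620590, plus strand): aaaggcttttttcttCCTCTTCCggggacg
RPS27 (chr1:153990747-153990776, plus strand): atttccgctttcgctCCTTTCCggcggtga
RPS28 (chr19:8321481-8321510, plus strand): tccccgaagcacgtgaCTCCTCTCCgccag
RPL23 (chr17:38853707-38853736, minus strand): cttttttcttttttccggcgttcaagatgt
RPS26 (chr12:56041903-56041932, plus strand): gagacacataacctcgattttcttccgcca
RPS13 (chr11:17077653-17077682, minus strand): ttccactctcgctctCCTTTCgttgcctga
RPS16 (chr19:39435935-39435964, minus strand): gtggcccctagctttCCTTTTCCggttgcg
RPLP2 (chr11:809952-809981, plus strand): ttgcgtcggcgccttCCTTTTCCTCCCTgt
RPL23 and RPS26 among them had no tract by this rule. Of the 11 RP genes without a tract, 8 had an E2F1 peak in GSK126, and so did 61 of the 66 with one. Peaks by tract were not counted at other genes.

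Other promoter words set RP genes further apart from most genes than the E2F word did. Between 250 bases before and 50 bases after the canonical TSS, TCTCGCGA on either strand was found at 15 RP genes (19.5%), against 1.72% of all protein-coding promoters. CCGGAAG, an ETS word, was at 27 (35.1% against 14.1%) and AAGATGGC, a YY1 word, at 10 (13.0% against 4.06%). GGGGCGG, an SP1 word, was at 24 (31.2% against 44.5%), TATAAA at 6 (7.79% against 9.73%) and the E2F words at 16 (20.8% against 17.1%). Matches of different words overlapped in 3 RP promoters, for the ETS and SP1 words at RPL3 and RPL8 and for the E2F and YY1 words at RPS3. Of 14 TCTCGCGA words read in full, 11 began within 70 bases before the canonical TSS, and 5 genes are shown with the word in capitals.
RPL10A (chr6:35468345-35468374, plus strand): gcaaagcattaTCGCGAGAtcagggccact
RPL12 (chr9:127451443-127451472, minus strand): gtgacgacagtTCTCGCGAtagccgcgttt
RPL26 (chr17:8383222-8383251, minus strand): agacataggtcTCGCGAGAtctttggtaaa
RPS19 (chr19:41860197-41860226, plus strand): tttcggaactcTCGCGAGAccctacgcccg
RPS28 (chr19:8321425-8321454, plus strand): gcggcgtggtaTCGCGAGAcgggagtgggc
E2F1 had a DMSO peak at 13 of the 15 RP genes with TCTCGCGA and at 38 of the 62 without it, and a GSK126 peak at 14 and 55. The 16 RP genes with an E2F word in the promoter all had a GSK126 peak, as did 53 of the other 61. Peaks at other protein-coding genes with and without these words were not counted, so these numbers have no background. A match shows only that the letters are present.

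The 7 RP genes with an E2F1 peak in untreated cells were RPS29, RPS13, RPL35, RPS15, RPS12, RPS3 and RPLP2, 5 of the 31 small-subunit and 2 of the 46 large-subunit genes. RPS29, a zinc-binding protein of the 40S head, had the highest E2F1 fold of all RP genes in each list, at 19.8 untreated, 22.4 with DMSO and 41.1 with GSK126. Its summits did not lie at the canonical start of RPS29 but 12605, 12593 and 12583 bp upstream of it, in a noncoding exon of an alternative RPS29 transcript. The nearest TSS of another protein-coding gene, LRR1, was 33, 21 and 11 bp away. No E2F1 peak lay within 1 kb of the canonical RPS29 TSS in any of the lists.

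RPS13, a protein of the 40S body, came next, with E2F1 folds of 17.4, 17.1 and 25.4 in the same order. Its untreated peak spanned chr11:17077754-17077993 and had its summit at chr11:17077865, 198 bp upstream of the canonical TSS and outside the gene. The DMSO and GSK126 summits were 224 and 215 bp upstream, and no other protein-coding TSS lay within 1 kb of the untreated summit. The TTCCCGC word printed for RPS13 is centred 219 bp upstream of the TSS.

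RPL35, which sits near the exit of the peptide tunnel, had an untreated fold of 8.05, a DMSO fold of 16.2 and a GSK126 fold of 17.3. Its DMSO and GSK126 peaks were the widest of the RP genes, at 1342 and 2201 bp, and its untreated summit fell in a UTR exon 35 bp downstream of the canonical TSS. RPS15, near the decoding site, had folds of 7.64, 11.9 and 17.0, with the summit 52, 51 and 51 bp downstream of the canonical TSS. The summit of RPS15 moved by 0 bp between DMSO and GSK126.

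RPS12 had folds of 7.12, 6.46 and 8.84, with summits 375, 354 and 370 bp upstream of its single annotated TSS. RPS3, at the mRNA entry channel, had folds of 5.70, 9.96 and 17.1 at summits 21 and 11 bp upstream and then 17 bp downstream of the canonical TSS. RPLP2, a stalk protein, had folds of 4.51, 5.52 and 8.45. RPLP2 summits lay 650, 418 and 469 bp upstream of its TSS, and the TSS of the neighbouring gene PIDD1 was 1 bp from the GSK126 summit. All 7 genes were highest in GSK126, and the order of the untreated and DMSO folds was reversed at RPS12 and RPS13 relative to the other 5. The summit fragments behind the untreated values numbered 11 at RPS12 to 56 at RPS29.

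**Figure D2:**
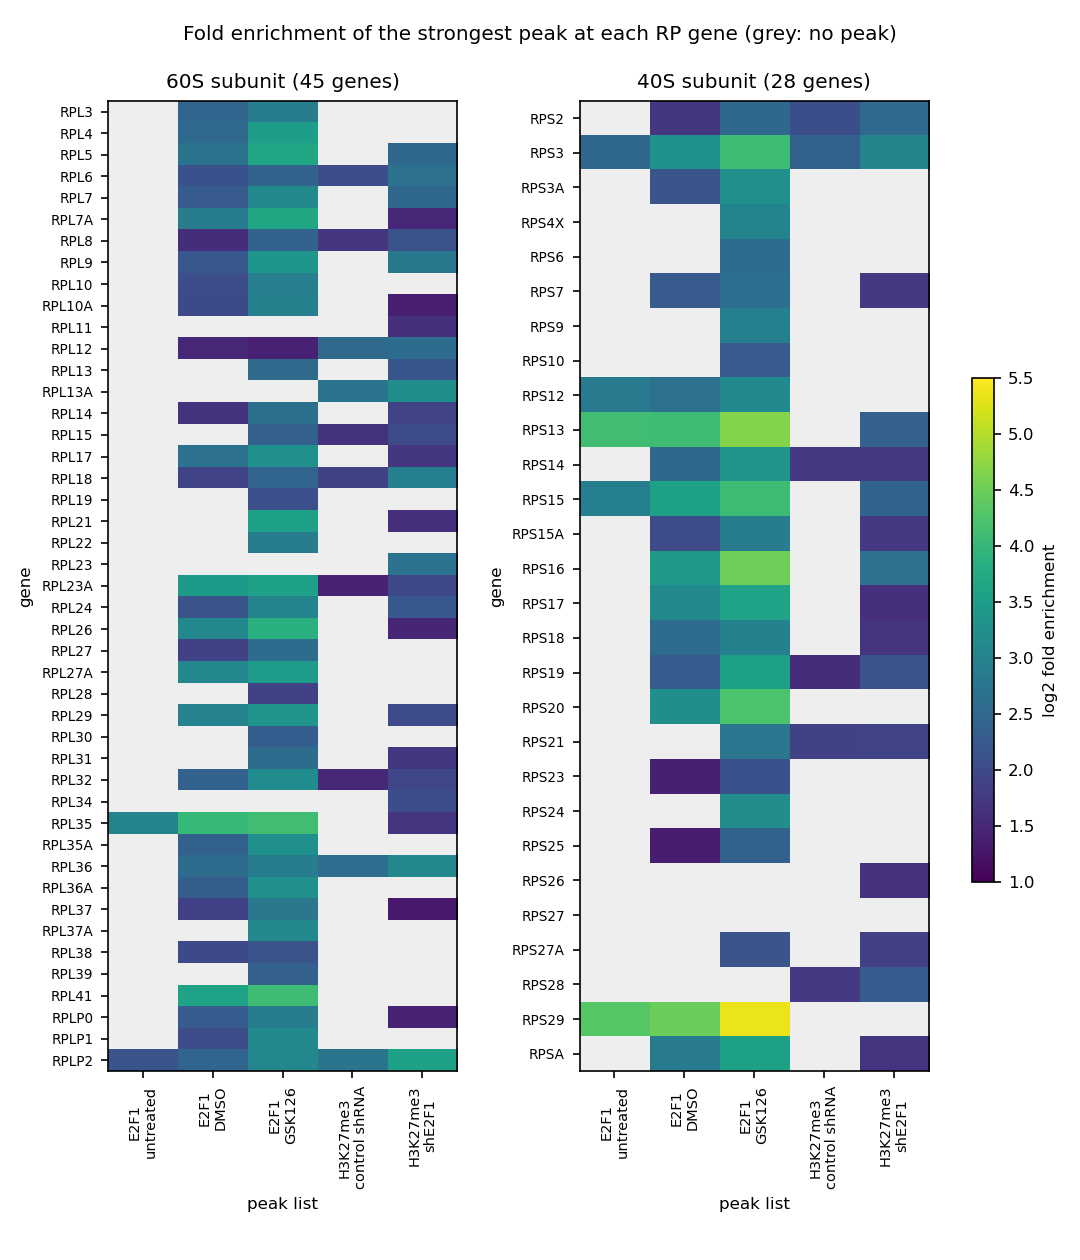
Each row is 1 of 73 RP genes and each column a peak list, with colour giving the log2 fold enrichment of the strongest peak within 1 kb of a TSS of the gene, and grey where there was none. The left panel holds 45 genes of the 60S subunit and the right panel 28 of the 40S subunit. RPS29 in GSK126 is the brightest cell (fold 41.1), and the row of RPS27 is grey in all 5 lists.

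E2F1 summits at RP genes were close to the start of the gene. In GSK126 the median distance from the strongest summit to the nearest annotated TSS was 63 bp, against 97 bp for all protein-coding genes with a peak, and in DMSO it was 70 bp against 106 bp. RP genes had more annotated TSSs, with a median of 8 against 5, which shortens this distance. Measured from the canonical TSS, 54 of 69 RP summits (78.3%) were within 250 bp in GSK126, against 61.0% of all genes, and 39 of 51 (76.5%) in DMSO, against 58.1%. Summits were nearly evenly split in GSK126, with 32 upstream and 36 downstream of the canonical TSS within 1 kb and the RPS29 summit far upstream. The strongest summit lay outside the gene at 20 of the 69, in a UTR exon at 31, in a noncoding exon at 13, in a coding exon at 2 and in an intron at 3.

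Most summits stayed in place between DMSO and GSK126. At 43 of the 51 RP genes with both peaks the strongest summits were within 100 bp of each other, and the median shift was 26 bp, against 29 bp for all genes. At 5 genes, RPL6, RPS19, RPL9, RPS15A and RPS25, the shift exceeded 300 bp. At RPL6 the strongest DMSO peak was at an alternative start 9384 bp upstream of the canonical TSS, 42 bp from a TSS of PTPN11, whereas the strongest GSK126 peak was 94 bp downstream of the canonical TSS. At RPS19, a 40S assembly protein, the DMSO summit was 129 bp downstream and the GSK126 summit 564 bp upstream of the canonical TSS.

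Several RP genes share their promoter with a neighbour. Another protein-coding gene had a TSS within 1 kb of the canonical TSS of 18 RP genes (23.4%, against 18.3% of all genes), LIAS at RPL9, SUPT5H at RPS16, ZWILCH at RPL4 and LRSAM1 at RPL12 among them. Of these 18, 15 had an E2F1 peak in DMSO and 17 in GSK126, and of the other 59 it was 36 and 52. All protein-coding genes showed a gap in the same direction, with E2F1 at 48.8% in DMSO and 72.5% in GSK126 where a start was shared, against 30.1% and 46.8% where it was not. In GSK126 the strongest summit was nearer to a TSS of another protein-coding gene than to any TSS of the RP gene at 6 of 69. A peak at a shared promoter cannot be assigned to one of the 2 genes from these files.

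**Figure D3:**
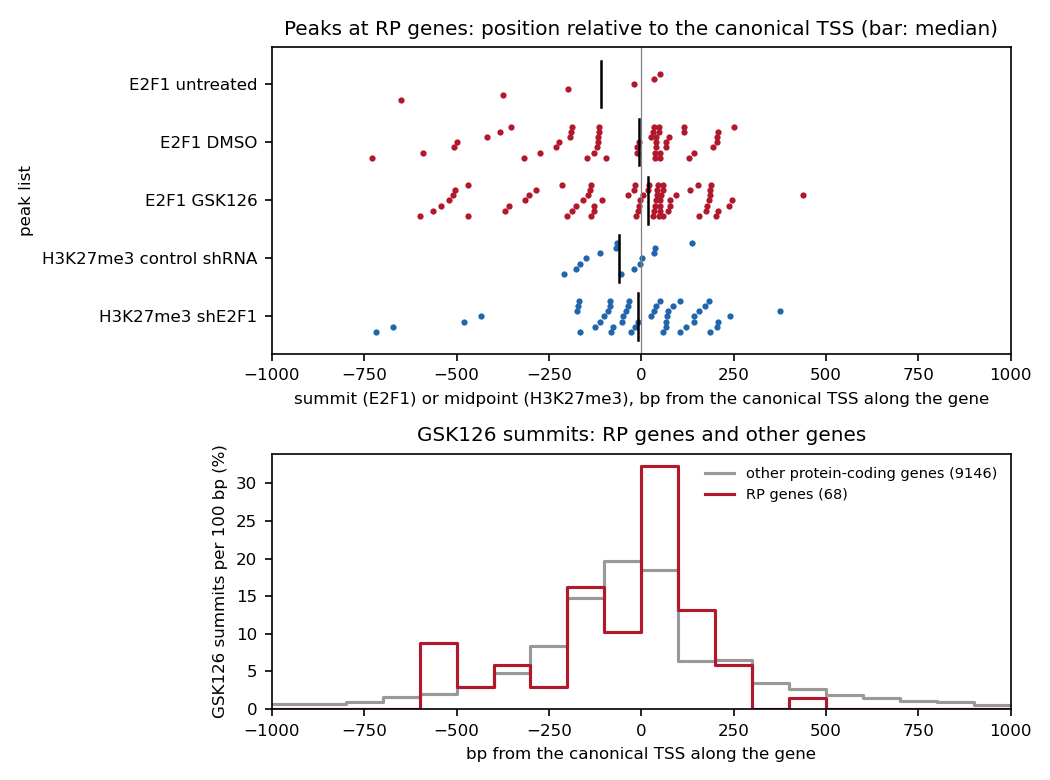
The upper panel gives the position of the strongest peak at each RP gene relative to the canonical TSS (x axis, bp along the gene, negative upstream) in the 5 lists, with a bar at the median and peaks beyond 1 kb left out. The lower panel gives GSK126 summits per 100 bp as a percentage of the 68 RP genes and of the other protein-coding genes with a peak. RP summits have a median of 19 bp downstream in GSK126.

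GSK126 went with higher E2F1 fold at nearly every RP gene, as at nearly every gene. Among the 51 RP genes with a peak in both lists the fold was higher in GSK126 at 50, where 97.2% of the 6539 protein-coding genes with both peaks were higher. The ratio of GSK126 to DMSO fold was at least 1.5 at 34 RP genes (66.7%, against 67.7%) and at most the inverse of 1.5 at 0 (against 0.107%). The median log2 ratio was 0.77 at RP genes and 0.73 over all genes. The count of RP genes past a ratio of 1.5 was thus near the background.

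RPS19, RPL9, RPS16 and RPLP1 were among the 5 RP genes with the largest ratios. At RPS19 the E2F1 fold was 4.94 in DMSO and 11.8 in GSK126 (ratio 2.38), at summits 693 bp apart. RPL9, a 60S protein whose promoter is shared with LIAS, had 4.66 and 10.2 (ratio 2.198). RPS16 had 10.9 and 22.8 (ratio 2.10), and RPLP1, a stalk protein, had 4.20 and 8.81 (ratio 2.10). These genes span low to high DMSO levels, and RPS16 among them had one of the 5 highest GSK126 folds of the RP genes.

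The smallest ratios of fold were at RPL12, RPL35, RPL23A, RPL38 and RPL6. RPL12, a protein at the base of the stalk, was the 1 RP gene with a lower fold of the strongest peak in GSK126, 2.66 against 2.83 in DMSO, and both of its peaks were weak, with 18 and 19 fragments at the summit. RPL35 had 17.3 against 16.2 (ratio 1.06), RPL23A 12.0 against 10.9 (1.10), RPL38 4.42 against 3.98 (1.11) and RPL6 5.41 against 4.39 (1.23). The RPL6 value sets peaks 9478 bp apart against each other, and at the start near PTPN11, where the DMSO peak lay, the GSK126 fold was 5.12. RPL35 and RPL23A were thus high in both lists. The 5 highest DMSO folds were at RPS29, RPS13, RPL35, RPL41 (12.2) and RPS15, and RPS29, RPS13, RPS16 and RPS20 (18.7) were among the 5 highest in GSK126.

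Fragment numbers at the summit, solved from the fold and p-value of each peak and divided by the lowest background of the library, gave a ratio with a counting error. The median log2 ratio of GSK126 to DMSO was 0.82 at RP genes and 0.77 over all genes. At 33 of the 51 RP genes (64.7%, against 61.4% of all genes) the exact 95% interval of the ratio lay above 1, and at 0 it lay below 1 (against 0%). RPS29 went from 196 to 339 fragments, a ratio of 1.85 (1.55 to 2.22). RPS16 went from 82 to 150 (1.96, 1.49 to 2.59) and RPS13 from 101 to 167 (1.77, 1.37 to 2.29). RPL12 went from 19 to 18 (1.01, 0.502 to 2.04) and RPL6 from 24 to 21 (0.936, 0.496 to 1.75), and both intervals include 1. The RPL6 value sets peaks 9478 bp apart against each other, so it is not a change at the same site. At the start near PTPN11 RPL6 had 24 fragments in DMSO and 28 in GSK126. The fragment ratio was smaller than the fold ratio at RPL6, and also at RPS19 (1.83) and RPL9 (1.67). At RPL35 it was larger than the fold ratio, at 1.40 (1.09 to 1.80, from 114 to 149 fragments). At RPL23A it was larger too, at 1.40 (0.935 to 2.10, from 46 to 60 fragments). The intervals hold for 2 libraries and say nothing of the spread between cultures.

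**Figure D4:**
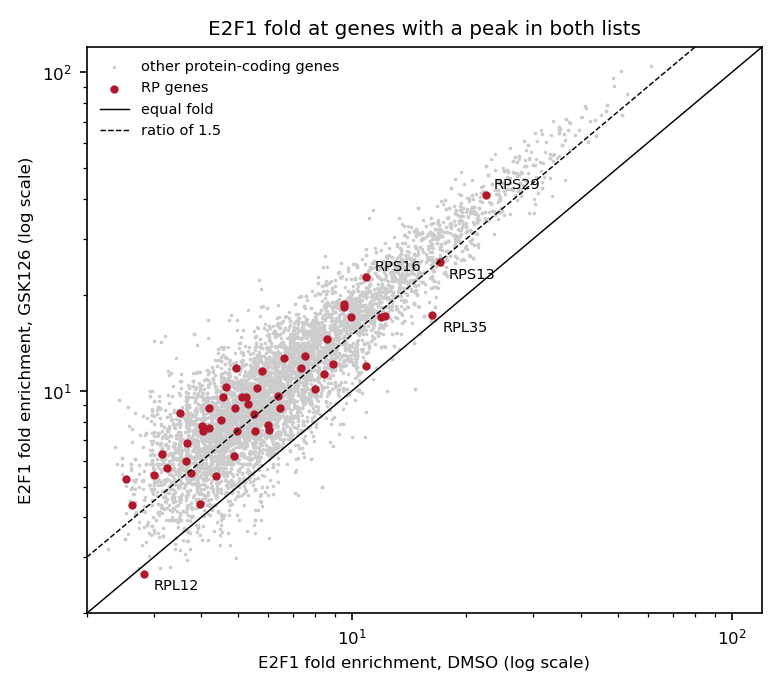
E2F1 fold in GSK126 (y axis, log scale) against DMSO (x axis, log scale) at protein-coding genes with a peak in both lists, with the 51 RP genes in red. The solid line marks equal fold and the dashed line a ratio of 1.5. All RP genes but RPL12 lie above the solid line, within the cloud of other genes.

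Another 18 RP genes had an E2F1 peak in GSK126 and not in DMSO (23.4%, against 18.7% of all genes), and no RP gene had one in DMSO and not in GSK126 (against 0.796%). Among the 18 were RPL13, RPL15, RPL19, RPL21, RPL22, RPL28, RPL30, RPL31, RPL37A, RPL39, RPS4X, RPS6, RPS9, RPS10, RPS21, RPS24 and RPS27A, and the GSK126 folds of the 18 ran from 3.69 at RPL28 to 11.8 at RPL21 with a median of 5.91. RPS6, the substrate of S6 kinase, had a GSK126 fold of 5.93, and RPS27A, made as a fusion to ubiquitin, had 4.55. The 51 genes with both peaks had a median GSK126 fold of 9.095, so the median of the 18 was lower.

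E2F1 was found in none of the 3 lists at 8 RP genes, RPL11, RPL13A, RPL23, RPL34, RPS26, RPS27 and RPS28 among them. RPL11 and RPL23 bind MDM2 when ribosome assembly fails, and RPS26 and RPS28 lie at the mRNA exit channel. The nearest E2F1 summit in GSK126 was 3929 bp from a TSS of RPS27, 5417 bp from RPL13A, 13014 bp from RPS28 and 16490 bp from RPL23, and it was over 20000 bp away at the other 4. None of the 8 was therefore close to the 1 kb limit. The members nearest to the limit in any list were RPLP2 inside it, with its untreated summit 648 bp from a TSS, and RPL38 outside it, with an shE2F1 midpoint at 1238 bp.

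H3K27me3 after knockdown was strongest at a handful of RP genes. RPLP2 had the highest −log10 q of the RP genes in shE2F1, 47.0 with a fold of 12.0, against 14.7 and 6.70 in control shRNA, and its shE2F1 peak was 1735 bp wide with a midpoint 11 bp from a TSS of PIDD1. RPL13A, a protein of the 60S surface, had a −log10 q of 46.0 and a fold of 9.41 in shE2F1, against 17.2 and 6.61 in control shRNA, at a midpoint 41 bp upstream of its TSS. RPL13A had no E2F1 peak at all. RPS3 followed with a −log10 q of 24.8 and a fold of 8.31 in shE2F1, against 8.06 and 5.28 in control shRNA, 69 bp downstream of its canonical TSS.

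RPL9 had the highest −log10 q of the genes marked in shE2F1 and not in control shRNA, 22.7 with a fold of 7.02, centred 16 bp upstream of its TSS and 66 bp from a TSS of LIAS. RPL18 had 21.4 in shE2F1 (fold 7.73) against 3.26 in control shRNA (fold 3.65). RPL36 had 20.5 against 8.94, at an alternative start, 9458 and 9472 bp upstream of the canonical TSS and 72 and 58 bp from a TSS of HSD11B1L. A weaker shE2F1 peak of RPL36, with a −log10 q of 3.92, lay 82 bp downstream of its canonical TSS.

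RPL23 had a −log10 q of 14.2 in shE2F1 and no peak in control shRNA, RPL6 had 14.01 against 4.64, RPS16 had 13.8 and no control peak, and RPL12 had 13.5 against 11.01. The RPL6 peaks were at its alternative start near PTPN11, 9453 and 9275 bp upstream of the canonical TSS. RPL12 had the smallest change in fold among the 7 of these 10 genes with a control peak.

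The genes with a control shRNA peak were RPL6, RPL8, RPL12, RPL13A, RPL15, RPL18, RPL23A, RPL32, RPL36, RPLP2, RPS2, RPS3, RPS14, RPS19, RPS21 and RPS28. At all 16 the fold was higher in shE2F1 than in control shRNA, where 54% of the 3920 protein-coding genes with both peaks were higher. The median log2 ratio of fold was 0.49 at the 16 RP genes, from 0.02 to 1.08, and 0.03 over the 3920 genes. The −log10 q was higher in shE2F1 at 16 of 16 as well, with a median of 10.4 against 3.88. RPS14 and RPL12 had the smallest ratios, with folds of 3.41 against 3.35 and 6.001 against 5.88.

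Most of the 33 RP genes marked in shE2F1 and not in control shRNA had weak peaks. Their shE2F1 −log10 q ran from 1.44 at RPL37 to 22.7 at RPL9, with a median of 2.95, whereas the 16 genes marked in both lists had a median of 10.4. With a lower limit of 5 on −log10 q, 23 RP genes were marked in shE2F1 (29.9%, against 9.05% of all genes) and 5 in control shRNA (6.49%, against 2.55%). Both counts fell, and both RP shares were above those of all genes.

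**Figure D5:**
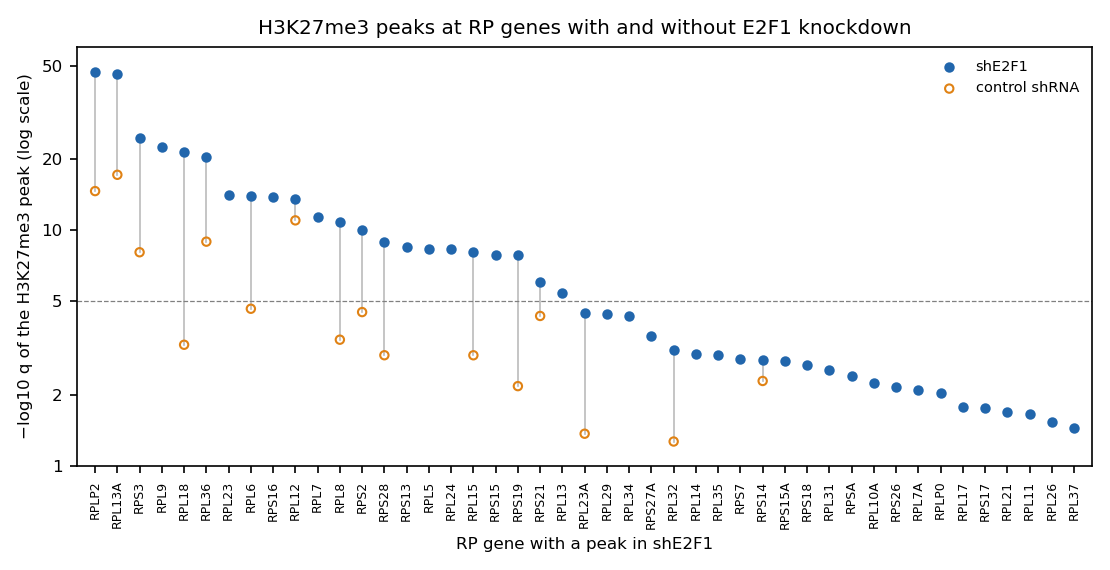
H3K27me3 −log10 q (y axis, log scale) of the strongest peak at 45 of the RP genes with a peak in shE2F1 (x axis, sorted), with filled points for shE2F1 and open points for control shRNA where there was a peak. Grey lines join the values of 1 gene, and the dashed line is a −log10 q of 5. The 16 open points all lie below their filled points, and RPLP2 (47.0) and RPL13A (46.0) stand highest.

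The H3K27me3 peaks at RP genes were narrow and centred on the start. Their median width was 519 bp in shE2F1, against 606 bp for all protein-coding genes with a peak, and 397 bp against 593 bp in control shRNA. The midpoint lay within 250 bp of the canonical TSS at 42 of 49 RP genes in shE2F1 (85.7%, against 50.2% of all genes) and at 14 of 16 in control shRNA (87.5%, against 32.9%). The median fold was 3.95 at RP genes and 3.22 at all genes in shE2F1, and the highest RP width, at RPLP2, compares with a highest width of 19724 bp over all genes. The shE2F1 list covered 179 Mb and the control list 143 Mb, and the part of this difference in the RP counts was not tested.

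Read gene by gene, H3K27me3 in shE2F1 was at 42 of the 69 RP genes with E2F1 in DMSO or GSK126 (60.9%). That was near the 57.6% of all protein-coding genes with such E2F1 peaks. It was also at 7 of the 8 RP genes with no E2F1 peak in any list (87.5%). E2F1 and H3K27me3 were measured in different cultures, so the patterns below join separate samples. The most frequent pattern was an E2F1 peak in DMSO and GSK126 with H3K27me3 in shE2F1, at 20 genes (26.0%, against 11.8% of all genes), RPL5, RPL9, RPS16 and RPSA among them. E2F1 in DMSO and GSK126 without any H3K27me3 was at 14 genes (18.2% against 10.3%), RPL3, RPL4, RPL41 and RPLP1 among them. E2F1 in GSK126 alone without H3K27me3 was at 11 (14.3% against 8.69%). Only RPLP2 and RPS3 had a peak in all 5 lists (2.60%, against 1.05% of all genes), and only RPS27 had none (1.30% against 28.4%).

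H3K27me3 that was in shE2F1 and not in control shRNA had shares at RP genes close to those of other genes in 3 classes of E2F1 pattern. It was at 3 of the 7 RP genes with an untreated E2F1 peak (42.9%, against 43.0% of the 1168 protein-coding genes with one). Among RP genes with E2F1 in DMSO and GSK126 but not untreated cells it was at 20 of 44 (45.5%, against 43.7%). Among those with E2F1 in GSK126 alone it was at 5 of 18 (27.8%, against 33.2%).

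Most of the 8 RP genes without E2F1 carried H3K27me3 after knockdown. H3K27me3 in shE2F1 and not in control shRNA was at 5 of them (62.5%, against 12.7% of the 9527 protein-coding genes without E2F1), RPL11, RPL23, RPL34 and RPS26 included. RPL13A and RPS28 had it in both lists, which makes 7 of 8 marked in shE2F1, against 34.2% of those genes. RPL23 (fold 6.52) and RPL13A were strong, whereas RPL34 (4.19), RPS26 (3.12) and RPL11 (3.05) were weaker. RPS28 had a fold of 4.96 in shE2F1 and 3.37 in control shRNA, 46 bp from a TSS of NDUFA7 in shE2F1. H3K27me3 in shE2F1 was thus also listed at RP genes where no E2F1 peak was.

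Functional groups within the RP genes had the following shares, with no test between them. The 60S and 40S genes had E2F1 in DMSO at 67.4% and 64.5%, in GSK126 at 89.1% and 90.3%, and H3K27me3 in shE2F1 at 65.2% and 61.3%. In untreated cells E2F1 was at 4.35% and 16.1%, which is 2 and 5 genes. In the stalk, RPLP0, RPLP1 and RPLP2 all had E2F1 in DMSO and GSK126, with GSK126 folds of 7.50, 8.81 and 8.45, and RPLP1 had no H3K27me3. Of the MDM2-binding proteins, RPL5 had E2F1 folds of 6.60 in DMSO and 12.7 in GSK126, RPL11 and RPL23 had none, and all 3 had H3K27me3 in shE2F1 and not in control shRNA. Of 18 RP genes mutated in Diamond-Blackfan anaemia, an inherited failure of red cell production, 10 had E2F1 in DMSO (55.6%, against 66.2% of all RP genes), 14 in GSK126 (77.8% against 89.6%) and 12 had H3K27me3 in shE2F1 (66.7% against 63.6%).

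FAU and RACK1, which encode ribosomal proteins under other names, had GSK126 folds of 7.84 and 6.71, and both had H3K27me3 in shE2F1 and not in control shRNA. The tissue-restricted paralogues RPL3L and RPL10L had no peak in any list. The other paralogues RPL7L1, RPL22L1, RPL26L1, RPL36AL, RPL39L and RPS27L all had E2F1 in GSK126, with folds of 5.89, 10.8, 5.02, 4.43, 8.93 and 10.2. The mitochondrial RP genes, 78 in number, had E2F1 at 41.0% in DMSO and 69.2% in GSK126 and H3K27me3 at 10.3% in control shRNA and 52.6% in shE2F1.

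RP pseudogenes, copies of RP genes chosen by symbol from all GENCODE pseudogene types, had almost no E2F1. Of 1585 pseudogenes 11 had a peak in DMSO (0.694%), 8 in GSK126 (0.505%) and 2 in untreated cells. H3K27me3 was at 10.5% of them in control shRNA and 11.7% in shE2F1. Read alignment to near-identical copies can be uncertain within transcribed sequence, and its part in these shares was not tested. In GSK126 the strongest summit lay outside the gene at 20 of 69 RP genes and in an exon or intron at the rest.

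Other genes of translation and ribosome assembly were set beside the shares of all protein-coding genes, 33.5% in DMSO, 51.5% in GSK126 and 46.4% in shE2F1. Of 17 other TOP genes, such as those for elongation factors, 15 had E2F1 in DMSO (88.2%) and 16 in GSK126 (94.1%), and 11 had H3K27me3 in shE2F1 (64.7%). Of 30 ribosome biogenesis genes 14 had E2F1 in DMSO (46.7%), 23 in GSK126 (76.7%) and 8 in untreated cells (26.7%, against 5.85%), and H3K27me3 was at 1 in control shRNA and 17 in shE2F1 (56.7%). Of 14 RNA polymerase I genes, which transcribe ribosomal RNA, 7 had E2F1 in DMSO (50%), 9 in GSK126 (64.3%) and 5 had H3K27me3 in shE2F1, where their 35.7% was below the share of all genes. The median log2 ratio of GSK126 to DMSO fold was 0.82, 0.59 and 0.90 in these 3 lists, beside 0.77 at RP genes.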

How the data were processed

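ChIP-seq peak lists of 5 MDA-MB-231 libraries were used, 3 for E2F1 and 2 for H3K27me3, with 1 library per group and therefore no test between groups. The authors trimmed 150-bp paired-end reads with cutadapt 4.5, aligned them to GRCh38 with Bowtie2 2.5.2 and ran MACS2 2.2.9.1 on each library at a q limit of 0.01, or with a broad cutoff of 0.1 for H3K27me3. The control library of each call is not given in the sources used here. The deposited fold enrichment is a ratio of signal to background at the summit, or averaged over a broad peak. The deposited −log10 p-value and −log10 q-value belong to each peak, and the deposited score was not used. The authors' summit offset gave the position of a narrow peak, and the midpoint that of a broad one.

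Each gene took its strongest peak by fold within 1000 bp of any TSS (GENCODE release 44). The MACS2 formulas were solved for whole fragments at the summit, which succeeded for all 1056, 15703 and 14276 E2F1 peaks within a relative error of 2e-05 and was tested on simulated peaks. Fragment ratios carry exact binomial 95% intervals. These intervals cover counting error only. The depth of the H3K27me3 libraries is unknown. Words were searched in the hg38 sequence with pysam 0.24.0, and shares used SciPy 1.17.1. Of the 77 RP genes 62 had an entry in the RefSeq promoter table, and 50 of those 62 had a TOP tract at the RefSeq start. Over all 27305 RefSeq promoters 21.1% had such a tract. Named genes were those with an untreated E2F1 peak, those with no E2F1 peak, the 5 highest and lowest ratios, the 5 highest folds in DMSO and in GSK126, all genes marked in control shRNA and the 10 highest shE2F1 −log10 q, with the members of lists of at most 10 genes. Genes outside this rule were picked as examples after their values were seen. Some genes and sequences are not reported here. The RP genes, gene lists and promoter words were chosen with earlier results of these data known. Alternatives were overlap of 1 bp, 500 bp windows, the canonical TSS, −log10 q limits of 5 and 2, other ratios and other word windows.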

Additional observations from a re-analysis of the deposited data

How the results depend on the processing

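Each condition has 1 library, so leaving out a replicate was not possible, and no paired analysis was possible because the result comes from no test and each group holds 1 library. Of 58 alternative values 50 stayed within 1.5 times the count or within the counting interval of the value reported. A −log10 q of at least 5 lowered the RP genes with H3K27me3 to 5 in control shRNA and 23 in shE2F1, because weaker peaks were left out. It left 18 in shE2F1 and not in control shRNA (23.4%, against 6.56% of all genes). A −log10 q of at least 2, added after the data were seen, gave 14 in control shRNA (18.2%, against 11.8% of all genes). It gave 43 in shE2F1 (55.8% against 26.1%) and 29 in shE2F1 and not in control shRNA (37.7% against 17.9%). The control shRNA share was thus near that of all genes without a limit and above it with either limit. A window of 500 bp gave 1 RP gene with E2F1 in DMSO and not in GSK126, where the wider window gave 0. The median GSK126 summit was 10 bp upstream of the nearest TSS (-10) and 17 bp downstream of the canonical TSS, which is a change of side. Requiring 1 more T before the E2F word lowered its share to 14.3% of untreated, 11.8% of DMSO and 10.1% of GSK126 summits at RP genes. Among all promoter summits the share with the longer word was likewise lower, at 22.0%, 10.4% and 8.29%. The untreated E2F1 library appeared shallow, with 11 to 56 fragments at its RP summits. The absence of an untreated peak at the other 70 RP genes is therefore not evidence that E2F1 was absent there.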
